A study of Mus musculus with 5 samples.

Results

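Glycogen is the branched glucose polymer in which liver stores sugar, and 9 genes of its synthesis and breakdown were examined at E18.5, shortly before birth, in livers of mouse embryos that had received tetraploid cells (4N) and in livers of normal embryos (WT). They were taken by symbol from the table of 4N against WT liver that the authors deposited, and all 9 were among its 23022 genes. They encode the enzyme that makes the activated sugar UDP-glucose (Ugp2), the glycogen synthases (Gys1, Gys2), the branching enzyme (Gbe1), a pair of glycogen phosphorylases (Pygl, Pygb), the liver alpha subunit of phosphorylase kinase (Phka2) and a pair of subunits that carry protein phosphatase 1 to glycogen (Ppp1r3b, Ppp1r3c).

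RNA of whole livers was sequenced after poly(A) selection in 5 libraries. The 4N group held 3 livers of embryos with a knockout of the homeobox gene Hhex, without which no liver forms, whose blastocysts had received 4N-ESCs, tetraploid embryonic stem cells positive for the red marker td-Tomato. The WT group held 2 livers of normal embryos of the same day. The groups therefore differed in ploidy, origin of the liver cells, host genotype and embryo manipulation, which cannot be told apart here. The labels give neither the share of liver cells that came from the injected cells nor the number of stem cell clones. They also do not say whether livers of a group came from separate litters, so p-values speak only for these samples. The table pools the libraries of each group, so single libraries were not analysed here. Values by group below are the means that match the table's overall mean and fold change, with 3 and 2 libraries. All fold changes are 4N over WT, and a gene is said to have risen or fallen where the authors' Wald test gave a Benjamini-Hochberg adjusted p under 0.05.

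The liver label held, since each of 9 hepatocyte markers was present and albumin (Alb) had a log2 change of 0.01 (SE 0.22) per the authors' deposited table. Hhex itself, with a mean of 5894 normalized counts, had a log2 change of 0.55 (SE 0.33, adjusted p = 0.29) per the authors' deposited table. Erythroid markers differed between the groups. All 11 erythroid markers listed in the table rose, and their summed means were 3322710 normalized counts in 4N liver and 969880 in WT liver, a ratio of 3.43. The 9 hepatocyte markers had summed means of 11749600 in 4N liver and 11942800 in WT liver, a ratio of 0.984, of which albumin carried the largest part. Their median log2 fold change was -0.34, and 3 of the 9 fell while 0 were higher at an unadjusted p under 0.05. In whole tissue, a change in the number of cells of a type and a change in RNA per cell cannot be told apart.

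During late gestation the fetal liver fills with glycogen, which the newborn uses when the supply from the placenta ends. Glycogen grows when synthase adds glucose from UDP-glucose and the branching enzyme sets side chains. It is taken down by phosphorylase, which phosphorylase kinase switches on. Protein phosphatase 1, brought to the particle by its targeting subunits, switches synthase on and phosphorylase off.

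In 4N liver, 5 of the 9 genes rose and 0 fell by the authors' Wald test, and 0 were lower at an unadjusted p under 0.05. The branching enzyme and the targeting subunit Ppp1r3b were about 3.11-fold and 2.98-fold higher, both phosphorylases and the minor synthase Gys1 were between 2.08-fold and 2.13-fold higher, and the main liver synthase Gys2 did not pass the test. Over all genes, 15.3% were called in either direction, 7.94% higher and 7.41% lower. All 9 genes had a mean above 1000 normalized counts, and among the 8656 genes at or above that mean 22.2% were called, 11.9% higher and 10.3% lower. The median log2 fold change was 1.06 over the 9 genes, -0.00 over all genes and 0.02 over genes with a mean of at least 1000. Under each of 3 other ways of centring the values, the 5 genes stayed higher and past the threshold. These centrings put the calls to little test, since they lowered all log2 values by only 0.02 or 0.05, or raised them. When values were centred on 26 secreted plasma proteins, a shift of all log2 values up by 0.58, Gys2 and Ppp1r3c passed too, and over all genes 6773 were higher and 851 lower, against 1828 and 1705 as deposited. When the Wald statistics were read against a t distribution with 3 degrees of freedom, 0 of the 9 genes and 0 of all genes passed, and unadjusted p-values of the 5 genes ran from 0.0075 to 0.048.

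**Figure D1:**
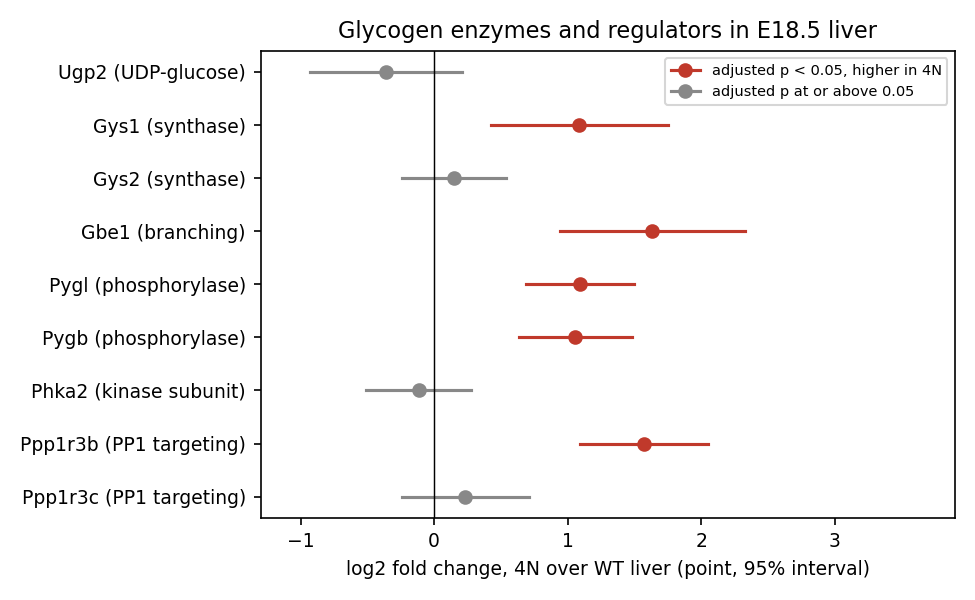
Log2 fold change of 4N over WT liver (horizontal axis) for the 9 glycogen genes, ordered from substrate to regulators, from the authors' deposited table. Points are the values, bars the 95% intervals from the standard errors of 3 4N and 2 WT livers, and the 5 genes in red, from 1.06 for Pygb to 1.64 for Gbe1, lie clear of 0.

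On the side of synthesis, the substrate enzyme did not pass the test. Ugp2 joins glucose-1-phosphate to UTP to form UDP-glucose, the donor for synthase and also for glucuronic acid. Its mean was 12925 normalized counts in 4N liver and 16590 in WT liver, with a log2 change of -0.36 (SE 0.29, adjusted p = 0.48) per the authors' deposited table. The 95% interval of the fold change ran from 0.526 to 1.15. Centred on the plasma proteins, the log2 change turned to 0.22, also without a call. A log2 change of 0.77 would have been needed for a call at this standard error.

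The synthases differed in what the test found for them. Gys2, the liver isozyme, had 11335 normalized counts in 4N liver and 10227 in WT liver, with a log2 change of 0.15 (SE 0.20, adjusted p = 0.72) per the authors' deposited table. Its 95% interval ran from 0.847-fold to 1.45-fold. Gys1, the isozyme known from muscle and most other tissues, had 2032 normalized counts in 4N liver and 955.4 in WT liver. It rose by 1.09 on the log2 scale (SE 0.34, adjusted p = 0.012) per the authors' deposited table, the weakest of the 5 calls. The log2 changes of Gys1 and Gys2 lay 0.94 apart, a difference not tested here because the table gives no covariance between genes. Per kilobase of the longest coding transcript, Gys1 made up 11.5% of synthase transcripts in 4N liver and 6.32% in WT liver, so the liver isozyme prevailed in both groups. Exons of Gys1 overlap those of Ruvbl2 on the opposite strand over 310 of 4789 bases (6.47%) in the annotation of another build. Ruvbl2 had a log2 change of 0.31 (SE 0.25, adjusted p = 0.49) per the authors' deposited table, and the counting is not stated to use strand.

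The branching enzyme had the largest fold of the 9 genes. Gbe1 had 6827 normalized counts in 4N liver and 2197 in WT liver, and it rose by 1.64 on the log2 scale (SE 0.35, adjusted p = 7.7e-05) per the authors' deposited table. Its 95% interval was also the widest of the 9, from 1.92-fold to 5.02-fold. The standard error corresponds to a coefficient of variation within groups of about 26.8% for Gbe1 and 25.5% for Gys1, against 15.0% to 21.9% for the other 7 genes.

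On the side of breakdown, both phosphorylases rose by nearly the same factor. Pygl, the liver isozyme that frees glucose-1-phosphate from glycogen, was the most abundant of the 9 per kilobase. It had 42135 normalized counts in 4N liver and 19749 in WT liver, a log2 change of 1.09 (SE 0.21, adjusted p = 3.2e-06) per the authors' deposited table. Pygb, the brain isozyme, which fetal tissues also express, had 10856 normalized counts in 4N liver and 5211 in WT liver. Its rise was 1.06 on the log2 scale (SE 0.22, adjusted p = 2.7e-05) per the authors' deposited table. The shares within the family were nearly alike in both groups: Pygl made up 82.7% of phosphorylase transcripts per kilobase in 4N liver and 82.3% in WT liver, and Pygb 16.3% in 4N liver and 16.6% in WT liver. The muscle isozyme Pygm, chosen for this family after its values were seen, had 0.936% in 4N liver and 1.12% in WT liver, with a log2 change of 0.82 (SE 0.31, adjusted p = 0.053) per the authors' deposited table.

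The activator of phosphorylase gave no call. Phka2, the X-linked regulatory subunit of phosphorylase kinase in liver, had 3219 normalized counts in 4N liver and 3487 in WT liver. Its log2 fold change was -0.12 (SE 0.20, adjusted p = 0.80) per the authors' deposited table, with a 95% interval from 0.703-fold to 1.21-fold. That interval leaves out the rise of 2.13-fold that its target Pygl showed, although the difference between both genes was not tested. Centred on the plasma proteins, the log2 change of Phka2 turned to 0.46, also without a call.

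The order of the levels per kilobase differed between the groups in its middle. In 4N liver Pygl (14082 normalized counts per kilobase) was followed by Ugp2 (4817), Gys2 (4266), Pygb (2777), Ppp1r3b (2259), Gbe1 (2067), Ppp1r3c (1430), Phka2 (742) and Gys1. In WT liver Pygl (6601) stood just above Ugp2 (6183), followed by Gys2 (3849), Pygb (1333), Ppp1r3c (1217), Phka2 (803), Ppp1r3b (759), Gbe1 (665) and Gys1. Ppp1r3b and Gbe1 stood above Ppp1r3c and Phka2 in 4N liver and below them in WT liver, where Phka2 and Ppp1r3b were close. Some neighbours lay closer than the within-group variation of 15.0% to 26.8%, which was derived from the standard errors and not from single libraries. Such were Phka2 and Ppp1r3b or Pygl and Ugp2 in WT liver, and Ppp1r3b and Gbe1 in both groups. No order was tested.

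**Figure D2:**
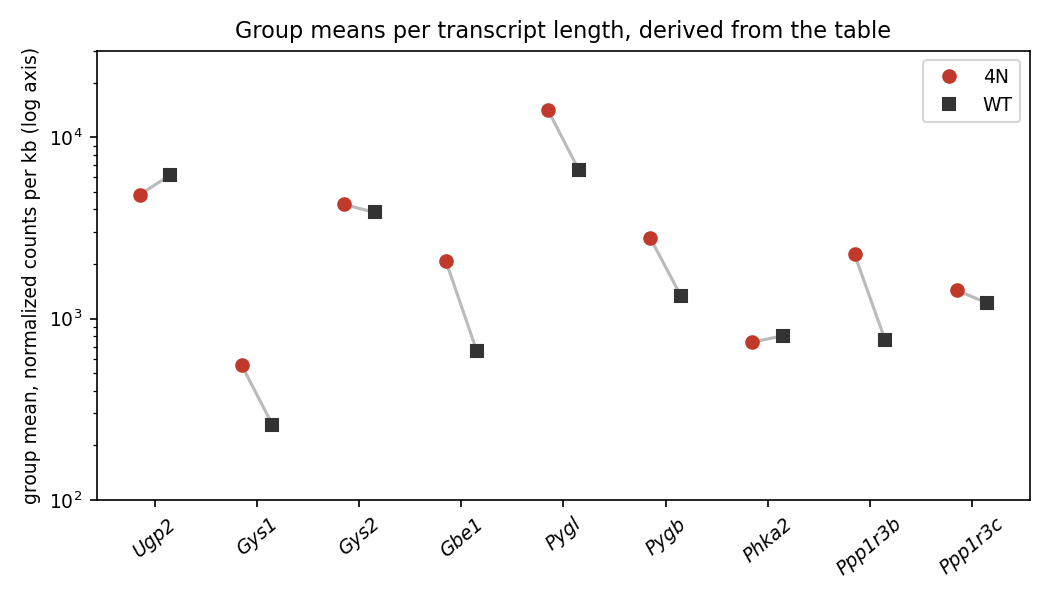
Mean normalized counts per kilobase of the longest coding transcript (vertical log axis) in 4N liver (red circles, left) and WT liver (black squares, right), derived from the authors' deposited table without values of single libraries. Pygl was highest in both groups, at 14082 in 4N liver and 6601 in WT liver, and Gys1 lowest, at 552.5 in 4N liver and 259.8 in WT liver.

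The phosphatase targeting subunits took different courses. Ppp1r3b, also called GL, is the classical liver subunit that binds phosphorylase a and brings the phosphatase to synthase. It had 9908 normalized counts in 4N liver and 3328 in WT liver, and it rose by 1.57 on the log2 scale (SE 0.24, adjusted p = 5.3e-09) per the authors' deposited table. Its call was the only one of the 5 that held in a test against a 1.5-fold change (adjusted p = 0.0019), with adjusted p-values of 1.0e-16 to 0.37 over the 8 alternatives. Ppp1r3c, also called PTG, a more widely expressed scaffold for synthase and phosphorylase, had 3898 normalized counts in 4N liver and 3316 in WT liver. Its log2 fold change was 0.23 (SE 0.24, adjusted p = 0.62) per the authors' deposited table, 1.34 below that of Ppp1r3b, a difference not tested here. Another liver subunit, Ppp1r3g, which was not among the 9 genes, had a larger fold than any of them. It had 4217 normalized counts in 4N liver and 348.8 in WT liver, a log2 change of 3.60 (SE 0.42, adjusted p = 2.1e-15) per the authors' deposited table, or 12.1-fold with a 95% interval from 6.80 to 21.5. In mouse liver Ppp1r3g is known as a subunit induced by fasting that speeds glycogen storage after a meal. Per kilobase and over 6 targeting subunits, Ppp1r3g made up 31.1% in 4N liver and 6.48% in WT liver, Ppp1r3b 39.8% in 4N liver and 33.7% in WT liver, and Ppp1r3c 25.2% in 4N liver and 54.0% in WT liver. By these values Ppp1r3c was the largest part of the family in WT liver, and Ppp1r3b in 4N liver, an order not tested here. In 4N liver Ppp1r3b (2259 normalized counts per kilobase) and Ppp1r3g (1765) lay closer than the within-group variation of Ppp1r3g, about 31.8%.

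**Figure D3:**
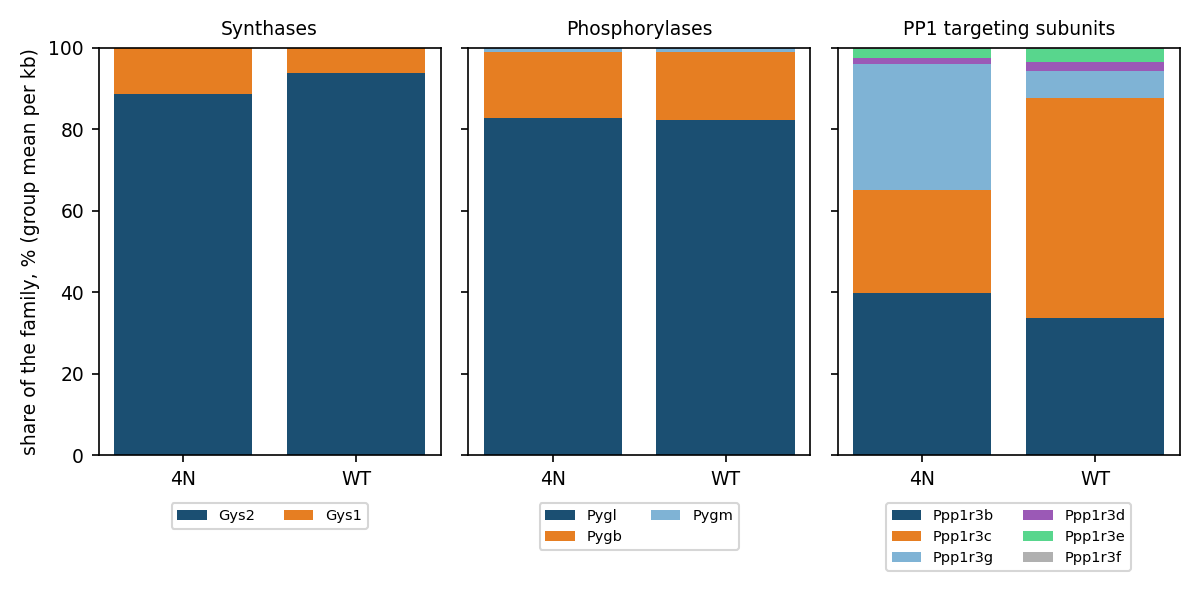
Share of each gene within its family (vertical axis, % of summed group means per kilobase) in 4N (left bar) and WT (right bar) liver for synthases, phosphorylases and protein phosphatase 1 targeting subunits, derived from the authors' deposited table, which allows no error bars. The phosphorylase bars are nearly alike, whereas Ppp1r3g takes 31.1% of the targeting subunits in 4N liver and 6.48% in WT liver.

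The promoters of the genes that rose were compared for a shared sequence, because Gbe1, Gys1 and Ppp1r3c are known from cultured cells to respond to hypoxia. RefSeq promoter sequences of build GRCm38.p6 were at hand for 7 of the 9 genes, and the stretches below hold only bases before the transcript start that no annotated exon covers. They are shown for the 4 of these genes that rose and for Ppp1r3c, which did not pass the test. Capitals mark ACGTG on either strand, a form of the core of the hypoxia response element, or CACGTG, the E-box that contains it on both strands. Other forms of the core were not searched.
Pygl (chr12:70227684-70227840, minus strand): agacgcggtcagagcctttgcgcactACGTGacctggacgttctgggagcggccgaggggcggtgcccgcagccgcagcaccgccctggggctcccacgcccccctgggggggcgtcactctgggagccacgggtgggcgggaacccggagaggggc
Pygb (chr2:150786546-150786734, plus strand): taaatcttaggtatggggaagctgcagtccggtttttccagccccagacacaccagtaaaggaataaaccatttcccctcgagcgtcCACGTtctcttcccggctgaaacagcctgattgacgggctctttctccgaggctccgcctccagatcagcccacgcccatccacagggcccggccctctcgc
Gys1 (chr7:45434710-45434838, plus strand): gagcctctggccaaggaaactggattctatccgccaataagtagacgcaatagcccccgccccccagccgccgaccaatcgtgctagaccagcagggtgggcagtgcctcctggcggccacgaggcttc
Gbe1 (chr16:70313699-70313948, plus strand): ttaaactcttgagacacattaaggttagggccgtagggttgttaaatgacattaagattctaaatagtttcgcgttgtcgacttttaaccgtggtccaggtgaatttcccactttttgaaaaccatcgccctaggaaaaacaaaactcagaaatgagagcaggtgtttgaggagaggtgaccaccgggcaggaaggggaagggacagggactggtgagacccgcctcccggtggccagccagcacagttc
Ppp1r3c (chr19:36736654-36736854, minus strand): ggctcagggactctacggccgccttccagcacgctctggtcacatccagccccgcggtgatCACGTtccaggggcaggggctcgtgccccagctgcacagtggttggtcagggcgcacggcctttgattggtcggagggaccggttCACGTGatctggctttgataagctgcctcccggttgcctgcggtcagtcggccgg

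The letters ACGTG, on either strand, stood within 250 bases before the start in 4 of the 8 promoters listed for these 7 genes. They were those of Pygl, Pygb and Ppp1r3c and 1 of the 2 promoters of Ugp2. Of all 32851 promoters in the RefSeq table, 16.6% held them. In Pygl the match began 131 bases before the start and in Pygb 163 bases before it. CACGTG was found in 1 of the 8 promoters, that of Ppp1r3c, against 6.02% of all promoters. Of the genes that rose, Pygl and Pygb held ACGTG in the window, Gys1 and Gbe1 did not, and no sequence was at hand for Ppp1r3b. Of those that did not pass, Ppp1r3c and 1 promoter of Ugp2 held it and Phka2 did not. Whether the motif or hypoxia has a part in the rises was not tested. A match describes letters in this window only.

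Beyond the 9 genes, 56 further genes of glycogen metabolism and its control were examined in 8 lists. For these genes, values given with an SE or as a range are log2 fold changes. Of these, 7 rose and 8 fell, together 26.8% of the 56, against 15.3% of all genes and 22.2% of genes with a mean of at least 1000, to which 43 of the 56 belonged. Their median log2 fold change was 0.09. With values centred on the plasma proteins, 29 of them were higher and 2 lower, and the 2 were G6pc and Gcgr. In the test against a 1.5-fold change 5 calls held, those of Ppp1r3g, Ugdh, Stbd1, G6pc and Gcgr.

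Of 4 genes that prime glycogen or supply glucose-1-phosphate, 1 rose by the authors' Wald test and 0 were lower at an unadjusted p under 0.05. Pgm1, phosphoglucomutase, which converts glucose-1-phosphate and glucose-6-phosphate into each other, had 22380 normalized counts in 4N liver and 11262 in WT liver. It rose by 0.99 on the log2 scale (SE 0.21, adjusted p = 3.5e-05) per the authors' deposited table, whereas the other 3 genes of that list lay between -0.18 and 0.52 without a call. Of 7 further genes of breakdown, 0 passed the authors' Wald test, and at an unadjusted p under 0.05 the count was 2 higher and 0 lower. Among them were other subunits of phosphorylase kinase, named after their values were seen. Phkb, the beta subunit, stood at -0.22 (SE 0.24) and Phkg2, the catalytic subunit of liver, at 0.13 (SE 0.26) per the authors' deposited table.

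Among 4 genes of lysosomal breakdown and glycogen quality, 1 rose and 1 fell. Stbd1, which binds glycogen and anchors it to membranes, had 7375 normalized counts in 4N liver and 2444 in WT liver, a log2 change of 1.59 (SE 0.26, adjusted p = 2.6e-08) per the authors' deposited table. Epm2a, which encodes laforin, the phosphatase that removes phosphate from glycogen, had 156.6 normalized counts in 4N liver and 359.6 in WT liver. It fell to 0.436-fold (log2 SE 0.40, adjusted p = 0.024) per the authors' deposited table, and stood at -0.62 on the log2 scale without a call when values were centred on the plasma proteins. Gaa, the lysosomal glucosidase, stood at -0.04 (SE 0.26) per the authors' deposited table.

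Of 8 genes of protein phosphatase 1, the catalytic subunit Ppp1cc rose (0.57, SE 0.20, adjusted p = 0.032) besides Ppp1r3g per the authors' deposited table. With values centred on the genes whose mean was 10000 or more, Ppp1cc stood at 0.52 without a call, and its adjusted p ran from 2.3e-07 to 1.0 over the 8 alternatives. The more abundant catalytic subunits Ppp1cb (0.56, SE 0.24) and Ppp1ca (0.18, SE 0.22) did not pass per the authors' deposited table. Of 8 kinase genes that act on synthase, including those of AMP-activated kinase, 1 fell and 0 rose by the authors' Wald test, with 2 higher at an unadjusted p under 0.05. It was Prkag2, a regulatory subunit of that kinase (-0.85, SE 0.21, adjusted p = 0.0011, per the authors' deposited table), which stood at -0.27 without a call when centred on the plasma proteins. Those 2 were Prkab1, the beta subunit of the same kinase (0.43, SE 0.19), and Gsk3a (0.47, SE 0.23) per the authors' deposited table, Gsk3a being named after its values were seen. Gsk3b, which like Gsk3a encodes a kinase that inactivates synthase, stood at 0.22 (SE 0.27) per the authors' deposited table.

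Of 5 genes of glucose entry and exit, 3 fell and 0 rose by the authors' Wald test, and 0 were higher at an unadjusted p under 0.05. G6pc, glucose-6-phosphatase, the last step by which glycogen becomes free glucose, had 3971 normalized counts in 4N liver and 25107 in WT liver. It fell by 2.66 on the log2 scale (SE 0.41, adjusted p = 2.7e-09) per the authors' deposited table. Gckr, a regulator of glucose use in hepatocytes (-1.02, SE 0.24), and the glucose transporter Slc2a2 (-0.68, SE 0.25, adjusted p = 0.045) fell too per the authors' deposited table. When centred on the plasma proteins these became -0.44 for Gckr and -0.10 for Slc2a2, both without a call. Slc37a4, which carries glucose-6-phosphate to the phosphatase, stood at 0.10 (SE 0.19) per the authors' deposited table.

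A pair of receptors through which hormones drive glycogen breakdown fell. Gcgr, the glucagon receptor, had 2894 normalized counts in 4N liver and 9567 in WT liver, a log2 change of -1.73 (SE 0.30, adjusted p = 2.4e-07) per the authors' deposited table. Adra1b, the alpha-1B adrenergic receptor, had -1.26 (SE 0.32, adjusted p = 0.0014) per the authors' deposited table and -0.68 without a call when centred on the plasma proteins. Mlxipl, the glucose-responsive transcription factor ChREBP, fell as well (-1.11, SE 0.26, adjusted p = 3.9e-04, per the authors' deposited table), and stood at -0.54 without a call when centred on the plasma proteins. On the insulin side, the receptor substrate Irs2 (0.73, SE 0.22, adjusted p = 0.0096) and the lipogenic factor Srebf1 (1.01, SE 0.28, adjusted p = 0.0030) rose per the authors' deposited table. Insr, the insulin receptor, stood at 0.07 (SE 0.20) per the authors' deposited table. In all, 2 of 15 hormone signal genes rose, 3 fell and 10 did not pass, the 10 with values between -0.30 and 0.51.

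Among 5 genes that use or replenish UDP-glucose, 1 rose. Ugdh, which oxidizes UDP-glucose to UDP-glucuronic acid and so competes for the product of Ugp2, had 5734 normalized counts in 4N liver and 1730 in WT liver, a log2 change of 1.73 (SE 0.29, adjusted p = 5.6e-08) per the authors' deposited table. The galactose enzyme Galk1 (-0.40, SE 0.36) and the glycoprotein sensor Uggt1 (0.09, SE 0.19) did not pass per the authors' deposited table.

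**Figure D4:**
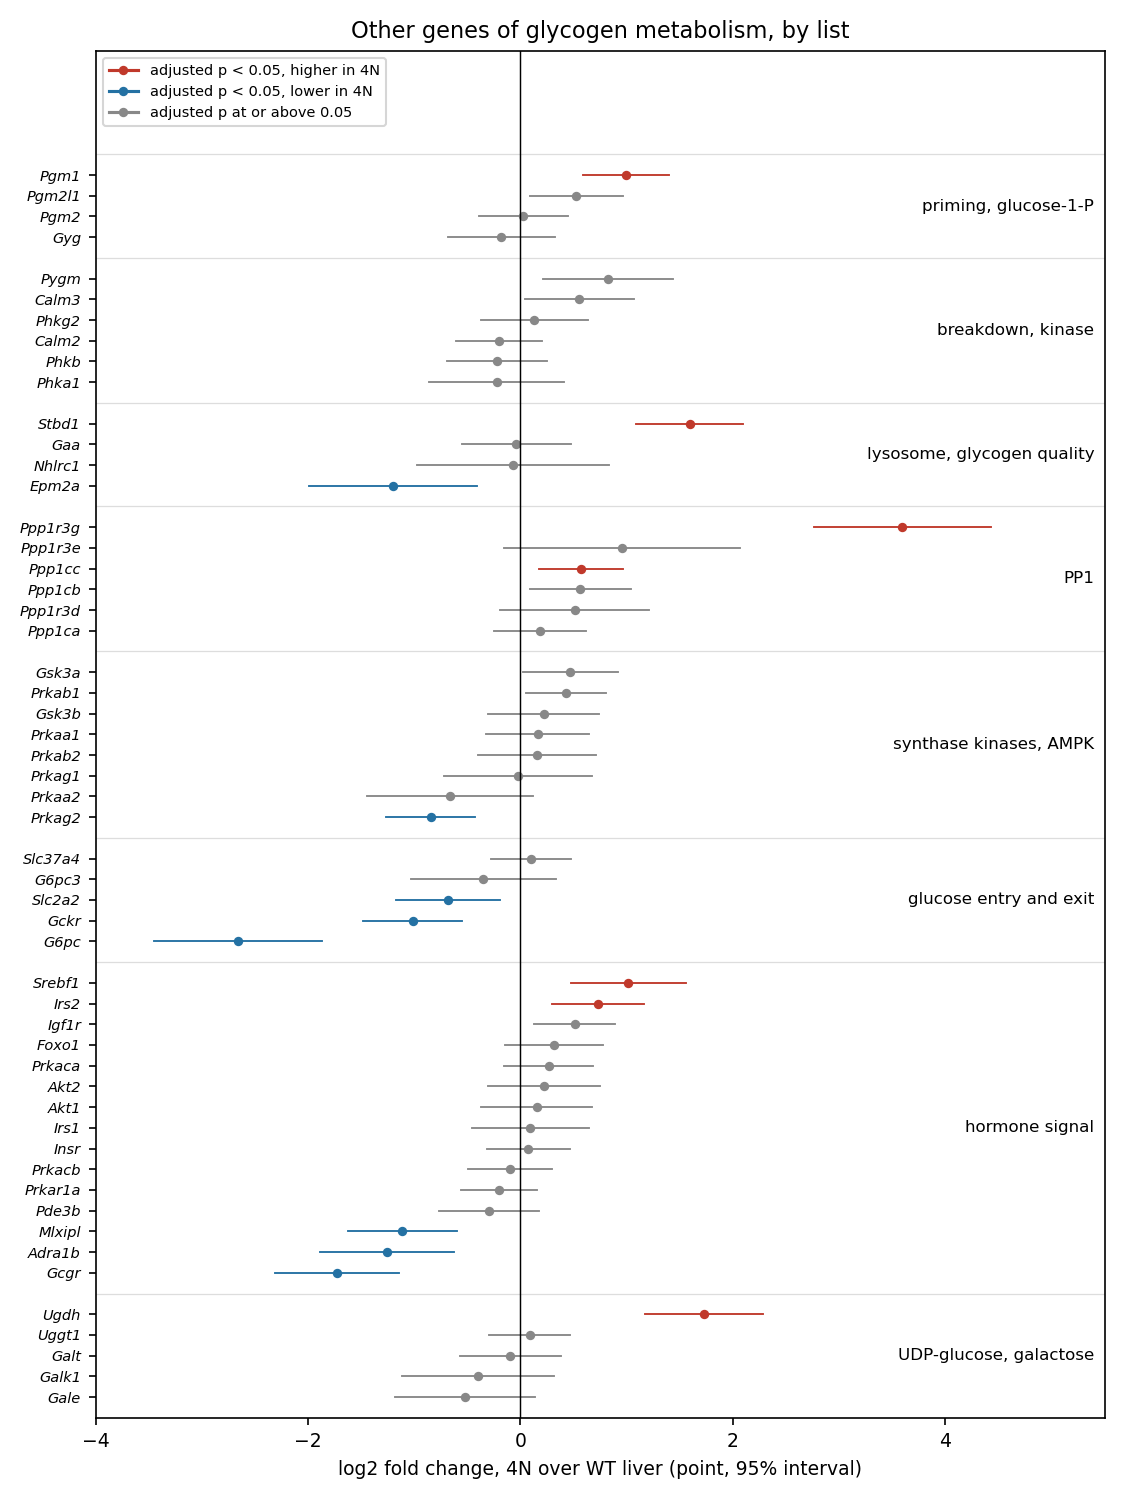
Log2 fold change of 4N over WT liver (horizontal axis, points with 95% intervals from the authors' deposited table) for the 53 of 56 other pathway genes whose mean was 50 normalized counts or more, grouped by list. Ppp1r3g stands farthest to the right at 3.60 and G6pc farthest to the left at -2.66.

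Values of other cell types moved in the same comparison, and their part in the rises of the glycogen genes was not tested. Besides the 11 of 11 erythroid markers that rose (median log2 fold change 1.71, among them Hbb-bs at 1.71, SE 0.20, per the authors' deposited table), 4 of 10 macrophage markers rose and 1 fell, with summed means of 46347 in 4N liver and 34341 in WT liver. Of 7 stellate cell markers 2 rose and 1 fell, with summed means of 71158 in 4N liver and 43153 in WT liver. None of 9 neutrophil, 4 megakaryocyte, 6 endothelial and 3 cholangiocyte markers was called by the authors' Wald test, and at an unadjusted p under 0.05 the counts were 0, 2, 1 and 1. The megakaryocyte and endothelial markers so counted were lower in 4N liver, and the cholangiocyte marker was higher. In the same order, summed means of these lists were 206947, 14869, 26795 and 1249 in 4N liver, against 189956, 21251, 30582 and 1080 in WT liver. Of 6 muscle markers, Ckm, Myh3 and Actc1 had no row in the table, and the other 3 summed to 91.9 in 4N liver and 72.6 in WT liver.

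**Figure D5:**
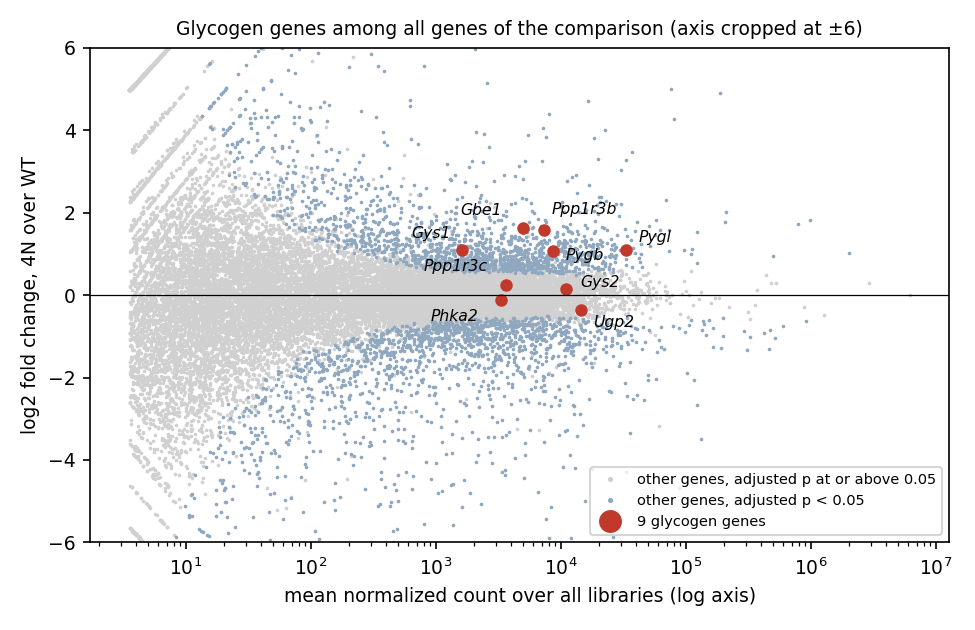
Log2 fold change of 4N over WT liver (vertical axis) against mean normalized count over all 5 libraries (horizontal log axis) for the 23022 genes of the authors' deposited table, with the 9 glycogen genes in red and 458 genes outside the cropped axis. The glycogen genes lie in the range of means where the band of genes without a call is narrow, 5 of them above it and 4 inside it.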

How the data were processed

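RNA of 3 4N and 2 WT livers was sequenced as poly(A)-selected libraries primed with random hexamers, per the labels' protocols. The submitters' processing notes name GRCm39; which aligner and counter were used is not given in the sources used here. What the authors deposited is 1 comparison table: the mean signal (normalized count over all libraries), the log2 fold change with its standard error, the Wald statistic (a score), and p-values with adjusted p-values, per the file headers, whose column names match those of DESeq2. Recomputed from the statistic, the adjusted p-values were Benjamini-Hochberg values over all 23022 genes. Depth per library is unknown; the summed mean was about 78112300 normalized counts, and the median standard error for means of at least 1000 was 0.24.

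The table does not name its numerator. A group with no reads is fitted at 0.5 counts over e, or 0.184. Within 5%, 606 positive and 247 negative genes stood there if positive means higher in 4N, and 0 if the sign is turned. Within 2% the counts were 20 and 0. Of the negative genes 12 had a standard error under 1.44, the lower limit for 2 empty libraries, so the empty group there held 3.

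Group means, 95% normal intervals and within-group coefficients of variation were derived from these columns with group sizes of 3 and 2, taking fitted group means as arithmetic means. Lengths and exons came from GENCODE M21 and promoters from RefSeq, both of build GRCm38. The members, lists and tests were chosen with earlier results of these data known, and the promoter motifs after the values were seen. The rule for named genes took all 9 members, called genes of the other lists and up to 2 abundant uncalled ones per list. Some genes of these lists are not reported here. Scripts were tested on simulated data. Scripts ran on scipy 1.17.1, pandas 2.3.3, numpy 2.4.6, matplotlib 3.10.9 and Python 3.11.15.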

Additional observations from a re-analysis of the deposited data

How the results depend on the processing

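The 8 alternatives were a minimum mean of 50, an adjusted p under 0.01, a test against a 1.5-fold change, a t reference with 3 degrees of freedom, 3 ways of centring and leaving out genes at the fitting floor. Counts of 5 called glycogen genes and 15 called other pathway genes fell to 1 and 5 when tested against a 1.5-fold change, and both to 0 with the t reference. With that reference no gene of the whole table was called, against 3533 by the authors' Wald test, so the calls hold only under the normal reference for 5 libraries. At an unadjusted p under 0.05 it left 2513 genes, the 5 glycogen genes among them. The authors' Wald test gave 3027 higher and 2853 lower at an unadjusted p under 0.05. Even Ppp1r3g, with a Wald statistic of 8.50, had an adjusted p of 0.37 with the t reference, so that alternative by its construction left little room for any call. Calls were lost for Gys1 (1.09), Gbe1 (1.64), Pygl (1.09) and Pygb (1.06) in the test against a 1.5-fold change (adjusted p = 0.91, 0.058, 0.20 and 0.35; over the 8 alternatives the lowest were 1.0e-05, 1.1e-08, 3.2e-14 and 2.9e-12), for these and Ppp1r3b (1.57) with the t reference (adjusted p between 0.37 and 0.45), and for Gys1 at the stricter threshold. Centring on 26 plasma proteins raised every log2 value by 0.58, with 6773 genes higher and 851 lower, 88.8% higher against 51.7%. It gave calls to Gys2 (0.73) and Ppp1r3c (0.81), turned Ugp2 to 0.22 and Phka2 to 0.46 without a call, and raised the other pathway genes called to 31; the cause was not tested. The other centrings, which lowered all log2 values by only 0.02 and 0.05, changed no call of the 9 genes. The minimum mean and leaving out floor genes changed no call of the 9 genes either. With the minimum mean of 50, the other pathway genes called went from 15 to 17, with 9 higher and 8 lower. With a tolerance of 2% in place of 5% on the fitting floor, only 20 positive and 0 negative genes stood there in place of 606 and 247. With 0 negative genes in place of 12 below the limit, the direction could not be read from the standard errors. With the sign turned, 0 genes stood at the floor at 2% as well. At 10% the counts were those at 5%. At an adjusted p under 0.01 the calls of Epm2a, Ppp1cc and Slc2a2 were lost among the other pathway genes. No paired analysis was possible because the table holds no values of single libraries, and leaving out each replicate could not be run for the same reason.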
